A study of Mus musculus with 12 samples.

Results

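The simple epithelial keratins Krt7, Krt8, Krt18, Krt19, Krt20 and Krt23 were followed in macrophages sorted from mouse pancreatic tumours. They were chosen by gene name among the non-control probes of the array, which gave 6 genes of 31131 gene names and 7 probes of 39429, with 2 probes for Krt8 and 1 for each other gene. All 6 genes passed the filter on dim probes. The groups were 6 samples labelled YFP+ macrophages and 6 labelled YFP− macrophages, both from pancreatic tumours of C57/B6 female mice 8 to 10 weeks old that had been implanted with tumours. Cells were isolated by flow sorting straight into lysis buffer, and the genotype is not provided. The series' design text names wild-type and KPC mice and mice with FLT3-CRE and a LSL-YFP reporter, so that YFP marks descendants of Flt3-expressing progenitors here rests on that text alone, and no clone or pooling is stated. Each of 6 tumour numbers, called 1 to 6 here in the order of the labels' numbers, occurs once in each group, and nothing in the labels ties a number to one animal, so each p-value speaks only of the variation among these arrays, which may be technical.

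Keratins form the intermediate filaments of epithelial cells. A filament is built from pairs of one type II keratin, such as Krt7 and Krt8, with one type I keratin, such as Krt18, Krt19, Krt20 and Krt23. Krt8 and Krt18 are the basic pair of single-layered epithelia, Krt7 and Krt19 mark ducts, Krt19 is used to recognise pancreatic ductal cells and ductal carcinoma, and Krt20 is best known from gut epithelium. Macrophages are not epithelial cells and their main intermediate filament protein is vimentin, so the sorted cells are not a cell type in which these genes are usually described.

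The 60-base array probes of Krt7 and Krt19, on which the values of a ductal type II and the ductal type I keratin rest, are shown first. The dimmer Krt8 probe is shown with them. The call and rank of Krt8 rest on its brighter probe, whose sequence is not shown. The sequences are given 5′ to 3′ in lower case, with mm9 positions from the array annotation, and each has a GC content of 55.0%. The Krt7 probe lies at chr15:101253718-101253777 on the plus strand, the dimmer Krt8 probe at chr15:101828827-101828886 on the minus strand and the Krt19 probe at chr11:100002392-100002451 on the minus strand.
Krt7: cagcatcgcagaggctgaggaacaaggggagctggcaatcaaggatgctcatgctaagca
Krt8: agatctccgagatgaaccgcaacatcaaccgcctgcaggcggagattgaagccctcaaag
Krt19: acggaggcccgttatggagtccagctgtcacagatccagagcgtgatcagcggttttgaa

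The other probes lie in the same 2 keratin clusters. The brighter Krt8 probe is at chr15:101827138-101827197 on the minus strand and the Krt18 probe at chr15:101862341-101862400 on the plus strand, so the genes of the basic pair are neighbours on chromosome 15 although their products are of different type. The Krt20 probe is at chr11:99289776-99289835 and the Krt23 probe at chr11:99339393-99339452, both on the minus strand and near Krt19 on chromosome 11.

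Promoters of 3 of the 4 genes called lower in YFP+ samples are shown because those genes shared a direction between groups. The RefSeq table (GRCm38.p6) held 5 of the 6 genes, and Krt19 had no entry in it. Each window runs from 250 bases before the start site to 20 after it, with TATAA on either strand in capitals. The windows are chr15:102004323-102004592 on the minus strand for Krt8, chr15:102027966-102028235 on the plus strand for Krt18 and chr11:99438134-99438403 on the minus strand for Krt20.
Krt8: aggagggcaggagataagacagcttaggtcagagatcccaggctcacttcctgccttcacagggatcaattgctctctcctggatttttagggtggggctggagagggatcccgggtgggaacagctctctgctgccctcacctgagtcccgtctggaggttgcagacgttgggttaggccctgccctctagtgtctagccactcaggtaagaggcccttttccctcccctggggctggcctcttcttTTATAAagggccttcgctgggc
Krt18: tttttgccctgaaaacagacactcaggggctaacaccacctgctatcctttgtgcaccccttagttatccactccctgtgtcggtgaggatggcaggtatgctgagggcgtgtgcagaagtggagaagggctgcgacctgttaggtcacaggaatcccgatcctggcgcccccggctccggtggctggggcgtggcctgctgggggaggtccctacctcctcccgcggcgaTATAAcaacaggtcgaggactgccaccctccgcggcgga
Krt20: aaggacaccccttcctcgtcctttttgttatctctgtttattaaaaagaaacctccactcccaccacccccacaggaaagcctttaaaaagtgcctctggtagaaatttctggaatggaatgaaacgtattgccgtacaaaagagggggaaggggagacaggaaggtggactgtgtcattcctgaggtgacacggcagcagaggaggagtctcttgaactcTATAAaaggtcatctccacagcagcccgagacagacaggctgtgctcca

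The motifs searched on both strands were TATAA (the TATA box), GGGCGG (the GC box) and TGANTCA (the AP-1 motif). A first search of the 250 bases before the start site found TATAA in Krt18 and Krt20, against 22.8% of 32851 promoters. The window was lengthened by 20 bases after the letters in Krt8 were seen to cross the start site, and it then held TATAA in Krt8, Krt18 and Krt20, against 23.7% of all windows. In Krt8 the overlapping matches on the 2 strands begin 1 and 2 bases before the start site, in Krt18 the match begins 19 and in Krt20 29 bases before it. GGGCGG was found 4 times in Krt7 and in no other of the 5 windows, against 34.1% of all windows. TGANTCA was in none of the 5, against 7.23% of all windows.

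The arrays had comparable detection, with 63.0% to 66.1% of probes well above background on YFP+ arrays and 61.3% to 63.9% on YFP− arrays. The 75th percentile of processed signal was 3261 to 3930 on YFP+ arrays and 2121 to 3329 on YFP− arrays, so the YFP+ arrays tended to be brighter before scaling. All 13 core macrophage genes on the array were well above background on every array. Their median difference was -0.11, 0 were called by limma, and 0 had an unadjusted p under 0.05. The arrays lay on 3 slides with 2 YFP+ and 2 YFP− arrays each. The tumour number 4 arrays stood apart for the keratins: the YFP+ array of that number was the lowest YFP+ array for 6 of the 7 probes, and its YFP− array was the lowest YFP− array for 7 of 7.

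Keratin signal was lower in YFP+ macrophages. Krt8, Krt18, Krt19 and Krt20 fell by 4.31-fold to 11.3-fold, and Krt7 and Krt23 had negative differences that did not pass the test. Of the 6 genes 4 were called lower and 0 higher at an adjusted p of 0.05 in limma, where 1.41% of all 20370 tested genes were called lower and 0.334% higher. The median log2 difference of the 6 was -2.76, beside -0.028 over all genes tested. In all 6 genes the YFP+ array was lower than the YFP− array of the same tumour number for 6 of 6 numbers. The share of all tested genes with that pattern is not given here. The 6 genes were also correlated across arrays, so they are not separate observations. All 6 YFP+ arrays lay below all 6 YFP− arrays for the 4 called genes, as they did for 1.45% of tested genes. The called genes ranked 52, 110, 114 and 199 by p among all genes, and Krt23 and Krt7 ranked 940 and 1452. In bulk samples, fewer cells of a type and less RNA per cell cannot be told apart.

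**Figure D1:**
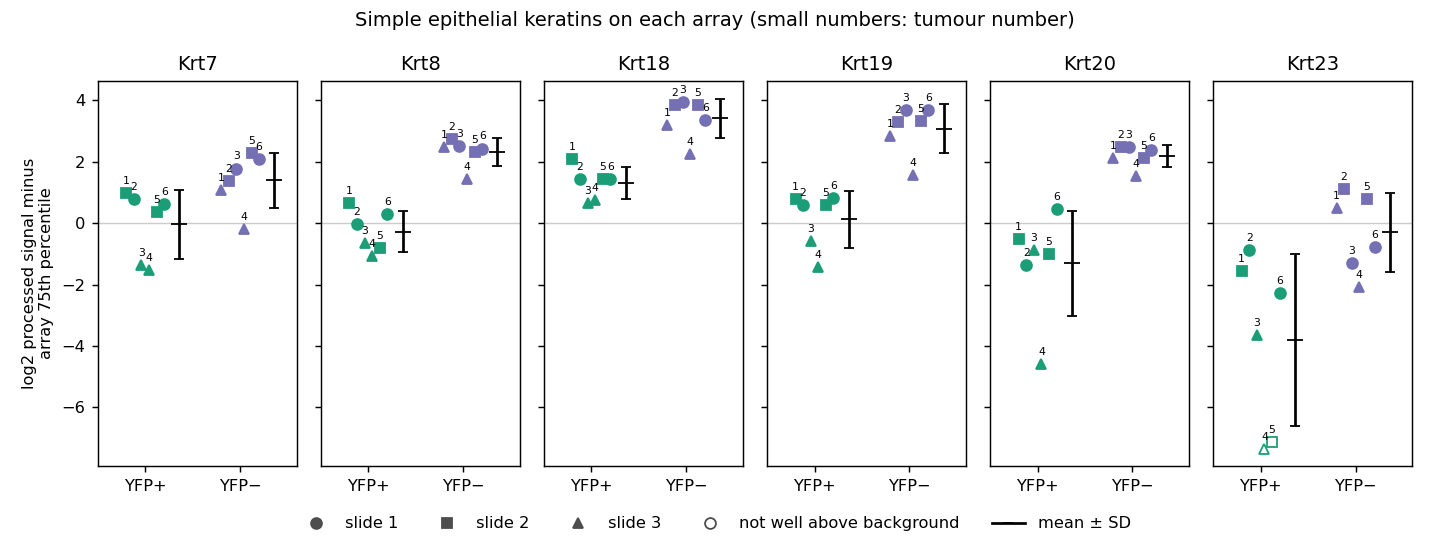
The log2 processed signal minus the array's 75th percentile (vertical axis) of each keratin on the 6 YFP+ and 6 YFP− arrays, with slides as marker shapes, tumour numbers beside the points and mean ± SD as black bars. Krt8, Krt18, Krt19 and Krt20 show no overlap between groups, whereas Krt7 and Krt23 overlap, and open points are arrays not well above background.

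The levels that follow are log2 signals relative to the array's 75th percentile, so 0 is the 75th percentile, and levels of different genes are not set against each other. Krt8, the type II partner in the basic pair, had its brighter probe at a lowest, median and highest level of -1.07, -0.34 and 0.66 in YFP+ samples, against 1.43, 2.46 and 2.73 in YFP− samples. The lowest YFP− array exceeded the highest YFP+ array. The log2 difference was -2.59 ± 0.33 (limma SE, n = 6 in each group), a 6.01-fold decrease with an adjusted p of 0.00147, and it was -2.35, -2.60 and -2.81 within the 3 slides. The dimmer Krt8 probe had -6.83, -2.09 and -0.98 in YFP+ samples, against -0.033, 1.33 and 1.65 in YFP− samples, and was well above background on 5 of 6 YFP+ and 6 of 6 YFP− arrays. Its groups did not overlap either, and its log2 difference was -4.11 ± 0.85 with an adjusted p of 0.0322 over all probes, where the brighter probe had 0.00161. Both probes were lower, but they differed in the size of the difference.

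**Figure D2:**
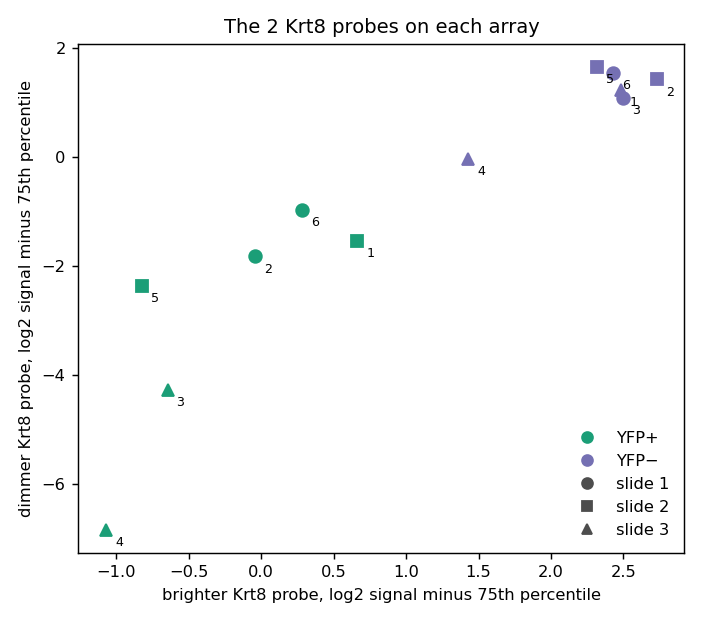
The brighter Krt8 probe (horizontal axis) against the dimmer Krt8 probe (vertical axis), each as log2 signal minus the array's 75th percentile, on every array. The 6 YFP+ arrays lie low and to the left of the 6 YFP− arrays on both axes, and the YFP+ array of tumour number 4 is lowest on both, at -1.07 and -6.83.

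Krt18, the type I partner of Krt8, had 0.67, 1.44 and 2.10 (lowest, median and highest) in YFP+ samples, against 2.25, 3.61 and 3.95 in YFP− samples. The groups did not overlap, although the gap between them was small. The log2 difference was -2.11 ± 0.33, a 4.31-fold decrease (adjusted p = 0.00629), with -2.22, -2.08 and -2.02 within slides. Krt19, the ductal type I keratin, had -1.44, 0.60 and 0.81 in YFP+ samples, against 1.57, 3.32 and 3.70 in YFP− samples. No YFP+ array reached the lowest YFP− array. Its log2 difference was -2.94 ± 0.47, a 7.68-fold decrease (adjusted p = 0.00665), with -2.99, -2.62 and -3.21 within slides.

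Krt20, the gut-type keratin, had -4.58, -0.94 and 0.46 in YFP+ samples, against 1.54, 2.26 and 2.49 in YFP− samples. The groups did not overlap, and YFP+ arrays spread far more widely, with SDs of 1.72 in YFP+ and 0.36 in YFP− samples. The YFP+ array of tumour number 4 stood at -4.58, and the other YFP+ arrays lay between -1.36 and 0.46. The log2 difference was -3.50 ± 0.66, an 11.3-fold decrease (adjusted p = 0.0172), with -2.89, -3.06 and -4.56 within slides. Without the YFP+ array of tumour number 4 the difference was -2.85 (adjusted p = 0.0015). The call was lost when both arrays of tumour number 2, 3 or 5 were left out, at adjusted p of 0.083, 0.076 and 0.073.

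Krt7, the ductal type II keratin, had -1.53, 0.48 and 0.97 in YFP+ samples, against -0.18, 1.57 and 2.28 in YFP− samples. The groups overlapped: 5 of 6 YFP− arrays were above all YFP+ arrays, and 2 of 6 YFP+ arrays were below all YFP− arrays. The log2 difference was -1.43 ± 0.54 with an adjusted p of 0.306, and -1.22, -1.17 and -1.90 within slides. When slide was blocked the same difference had an adjusted p of 0.021, when tumour number was a fixed block 0.18, and with array brightness as a covariate it was -0.59 (adjusted p = 0.81). Krt23, a type I keratin of less well described role, had -7.34, -2.96 and -0.88 in YFP+ samples, against -2.09, -0.15 and 1.11 in YFP− samples. It was well above background on 4 of 6 YFP+ and 6 of 6 YFP− arrays, a difference in detection with a two-sided Fisher's exact p of 0.455. Its log2 difference was -3.51 ± 1.14 (adjusted p = 0.205), and it was -0.54 on slide 1 against -5.30 and -4.69 on slides 2 and 3. The YFP+ arrays not well above background stood at -7.13 on slide 2 and -7.34 on slide 3. The size of the difference and its slide pattern therefore depend on signals at background. With normexp background correction the Krt23 difference was -2.25 (limma adjusted p = 0.060). Apart from Krt23 and the dimmer Krt8 probe, the member probes were well above background on all 12 arrays, and the Fisher's exact p adjusted over the 7 probes was 1 for each.

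**Figure D3:**
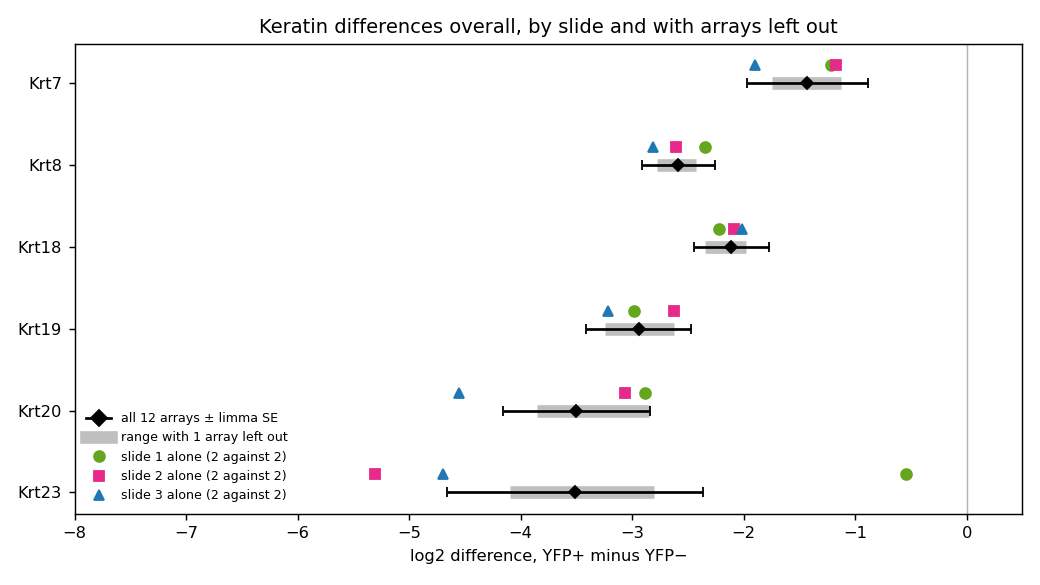
The log2 difference, YFP+ minus YFP− (horizontal axis), of each keratin over all 12 arrays with limma's SE, on each slide alone, and its range with 1 array left out. All values lie below 0, the narrowest ranges are those of Krt8 and Krt18, and Krt23 runs from -0.54 on slide 1 to -5.30 on slide 2.

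Of 41 other settings, 30 gave a new estimate of the difference, and in those 30 each of the 6 keratins was lower in YFP+ samples. The others changed only the spread, the genes tested or the threshold. With each slide alone 0 keratins were called. With slide 1 or slide 2 left out 1 was called, and 0 were called with array brightness as a covariate, where the log2 differences were -2.42 for Krt8, -1.31 for Krt18, -2.05 for Krt19, -3.00 for Krt20 and -4.30 for Krt23. Under that covariate 9 genes of all tested were called lower.

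The size of the difference was compared between members by an exact two-sided permutation test on the within-array difference of 2 genes, over 15 pairs with Benjamini-Hochberg adjustment. Krt19 changed more than Krt7, by 1.51 ± 0.20 on the log2 scale (exact p = 0.0022, the smallest these 12 arrays allow, adjusted p = 0.032). Krt19 also changed more than Krt18, by 0.83 ± 0.27 (exact permutation p = 0.0043, adjusted p = 0.032). Each gene entered with 1 probe, so differences between genes cannot be told apart from differences between probes. For Krt8 alone the 2 probes gave log2 differences of -2.59 and -4.11. The changes of Krt8 and Krt18, the basic pair, differed by -0.48 ± 0.21 (exact permutation p = 0.052, adjusted p = 0.13), and Krt7 and Krt20 by 2.07 ± 0.59 (adjusted p = 0.054, exact permutation). The other 11 pairs had adjusted p of 0.084 or more, which does not show equal changes. With both arrays of any 1 tumour number left out 0 pairs passed, where 5 against 5 arrays allow no exact p below 0.00794.

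Around their group means, the members were positively correlated across the 12 arrays, which share slides, to unequal degrees. The arrays of tumour number 4 are included, the lowest for 6 of 7 probes in YFP+ and 7 of 7 in YFP− samples. The r values between members are not centred within slides, so shared shifts of an array or slide enter them. Pearson's r of group-centred signals was 0.94 for Krt7 with Krt19, 0.87 for Krt7 with Krt18, 0.86 for Krt18 with Krt19 and 0.80 for Krt8 with Krt18. Krt23 was at 0.81 with Krt8 and at 0.49 with Krt18. Krt20 was at 0.75 with Krt19, 0.66 with Krt8, 0.60 with Krt7, 0.59 with Krt23 and 0.47 with Krt18, the lowest of the 15 pairs. Against the mean profile of Krt8, Krt18 and Krt19 the genes most alike, among named non-members, were Ppp2r5d (r = 0.978), Fat2 (0.962), Krt42 (0.959), Olfr514 (0.957) and Tmem82 (0.954). Centred within slides their r was 0.974, 0.857, 0.907, 0.856 and 0.844. Of these 5, Krt42 alone was called different between groups, and 99 genes other than the 3 that made the profile had an r above 0.9. Among all 20370 tested genes, Krt7 ranked 38 by the group-centred r (0.927), Krt20 2957 (0.686) and Krt23 3718 (0.636). Centred within slides the r was 0.692 for Krt7, 0.479 for Krt20 and 0.789 for Krt23, so their order changed.

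The array holds 52 keratin genes, of which 46 are not members, and 28 of those were tested, with 2 called lower, 1 higher and a median log2 difference of -0.47. Another 8 were never above background, and 10 were so on 1 to 5 arrays. Of those 10, Krt5 was well above background on 5 of 6 YFP+ and 0 of 6 YFP− arrays. Its other probe was so on 1 and 0, and Krt6a on 3 and 1. Krt31 went the other way with 1 and 3, and Krt12, Krt27, Krt33b and Krt78 were detected on 1 YFP− array only. Krt13, a keratin of stratified internal epithelia, was 5.46-fold lower by its brighter probe (log2 difference -2.45 ± 0.24, adjusted p = 3.35e-04). Its other probe was well above background on only 2 of 6 YFP+ and 2 of 6 YFP− arrays. Krt42 was 4.57-fold lower (-2.19 ± 0.35, adjusted p = 0.00629). Krt80 was 2.11-fold higher in YFP+ samples (1.08 ± 0.21, adjusted p = 0.0224), a call that was lost in 16 of 41 settings, among them tumour number as a fixed block (adjusted p = 0.053). Krt17, of basal and ductal epithelium, had -1.49 ± 0.43 (adjusted p = 0.13).

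**Figure D4:**
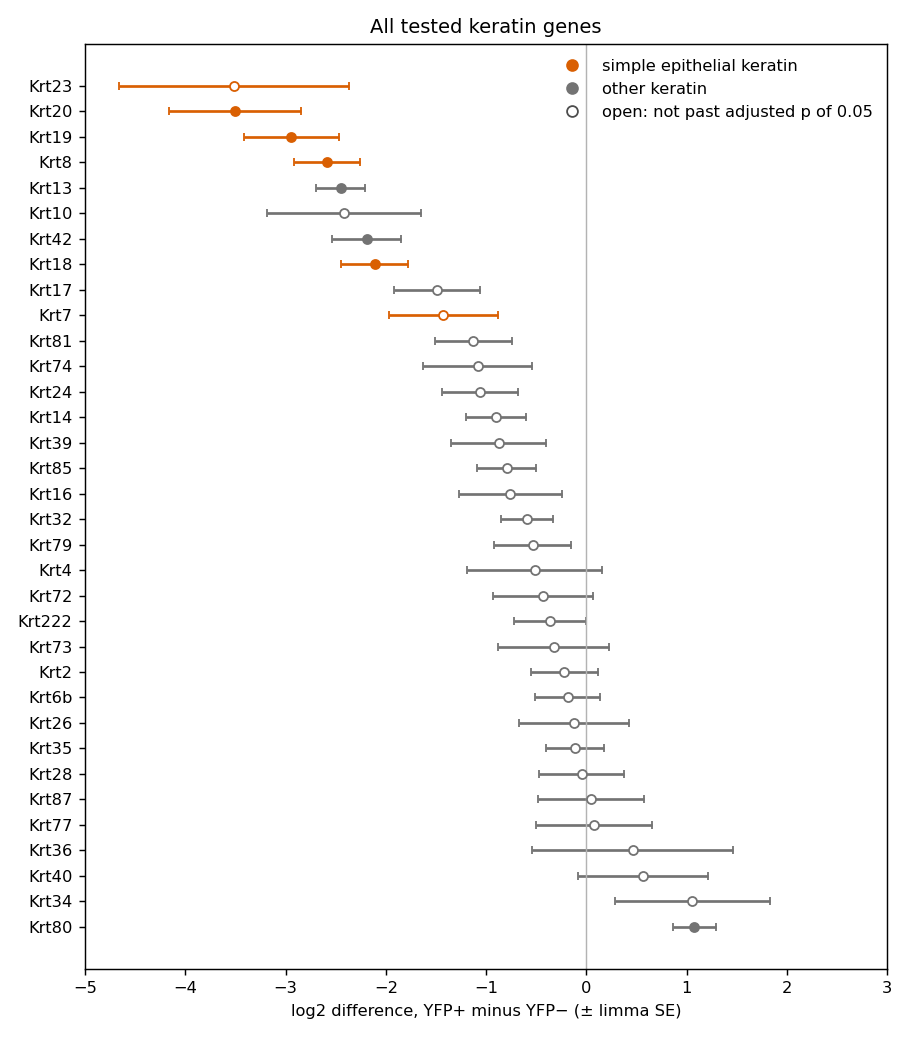
The log2 difference, YFP+ minus YFP−, of all 34 tested keratin genes with limma's SE, sorted, with simple epithelial keratins in orange and filled points past an adjusted p of 0.05. The members Krt23, which was not called, Krt20, Krt19 and Krt8 take the 4 most negative places. The non-members Krt13, Krt10 (not called) and Krt42, at -2.45, -2.41 and -2.19, come before the member Krt18 at -2.11. Krt80 at 1.08 is the most positive.

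Genes of the pathway around the keratins were read from lists. Of 14 tested keratin anchors and linkers, the desmosome, hemidesmosome and plakin genes, 3 were called lower and 0 higher, with a median of -1.41 and 14 of 14 negative. Dsp, the desmoplakin that ties keratin to desmosomes, was well above background on 0 of 6 YFP+ and 6 of 6 YFP− arrays. It passed the filter on dim probes through the YFP− arrays alone and so had to differ, and its adjusted p of 1.11e-04 is given as a description. Its signal was at least 5.55-fold lower in YFP+ samples, against the lowest signal counted as above background. Of the other 13 genes 2 were called. Dsg2, a desmosomal cadherin, fell 10.0-fold (-3.33 ± 0.58, adjusted p = 0.0114) and Eppk1, an epithelial plakin, fell 2.67-fold (-1.42 ± 0.26, adjusted p = 0.014), with 4 of 6 YFP+ and 6 of 6 YFP− arrays well above background. Itgb4, a hemidesmosomal integrin, had -3.08 ± 0.80 (adjusted p = 0.090). The summed signal of this list was 49.0 to 57.6 in YFP+ and 57.6 to 94.3 in YFP− samples, in units of the array's 75th percentile. Most of that sum came from Pkp3, with mean log2 levels of 5.31 in YFP+ and 5.70 in YFP− samples. Pkp3 was not called (-0.39 ± 0.19, limma adjusted p = 0.47), so the sum says little about Dsp, Dsg2 or Eppk1. Of 12 tested intermediate filament genes of other classes 0 were called by limma, and 0 had an unadjusted p under 0.05 (median 0.0030).

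Some markers of ductal and tumour epithelium were also lower in YFP+ samples. Of 23 tested, 6 were called lower and 0 higher, with a median of -1.22, and 20 were negative. Muc1, a surface mucin, fell 4.95-fold (-2.31 ± 0.31, adjusted p = 0.00197), and Prom1, a surface protein of epithelial cells, fell 6.87-fold (adjusted p = 0.0123). Sox9, a ductal transcription factor, and Cldn3, a tight junction claudin, had log2 differences of -4.11 and -4.45 (adjusted p = 0.011 and 0.0137) but were well above background on 1 and 2 of 6 YFP+ arrays, against 6 of 6 YFP− arrays for both. The defining surface markers Epcam and Cdh1, picked out after their values were seen, did not pass. Epcam had -1.48 ± 0.56 (adjusted p = 0.30) and Cdh1 -0.66 ± 0.44 (adjusted p = 0.65), and both were well above background on all 12 arrays. The summed signal of the list was 10.4 to 23.3 in YFP+ and 21.0 to 39.2 in YFP− samples, and that of the 6 keratins was 2.92 to 10.6 in YFP+ and 14.4 to 43.5 in YFP− samples. The part of epithelial cells in the keratin difference was not tested.

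Markers of other cell types that the sort could hold were read in the same way. Mesothelial cells, which make Krt7, Krt8, Krt18 and Krt19, had 2 of 8 markers tested. Msln had -3.15 ± 0.73 (adjusted p = 0.051) and Wt1 -2.33 ± 0.79 (adjusted p = 0.23). The summed signal of these 2 tested genes was 0.237 to 2.67 in YFP+ and 2.65 to 8.97 in YFP− samples. Bnc1 and Gpm6a were not above background on any array. Krt5, also on this list but not tested, went the other way in detection. Its 2 probes were well above background on 5 and 1 of 6 YFP+ arrays, and both on 0 of 6 YFP− arrays. Of 11 acinar markers 1, Cela1, was called lower (-3.43 ± 0.78, adjusted p = 0.0495), a call lost in 31 of 40 settings. Cela1 was well above background on 2 of 6 YFP+ and 6 of 6 YFP− arrays, so its difference depends on YFP+ signals mostly at background. Cel, Amy2a5 and Reg1 had -2.19, -1.54 and -3.05 (adjusted p = 0.27, 0.27 and 0.32), the list's median was -1.77, and its within-slide medians were -0.73, -0.32 and -4.31, with summed signals of 4.48 to 28.5 in YFP+ and 13.0 to 112 in YFP− samples.

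Of 12 fibroblast markers 7 were called lower and 0 higher (median -1.79), including the matrix genes Mfap5, 6.01-fold, Postn, 5.79-fold, Col3a1, 3.30-fold and Col1a1, 3.22-fold, with summed signals of 22.2 to 41.4 in YFP+ and 59.3 to 141 in YFP− samples. Of 5 tested red cell markers 3, the haemoglobin genes Hbb-b2, Hbb-b1 and Hba-a1, were called lower by 5.22-fold, 12.5-fold and 3.97-fold (median -2.20), and Alas2 had -2.20 ± 0.61 (adjusted p = 0.11). The Hba-a1 call was lost in 26 of 41 settings. The list had summed signals of 3.82 to 27.1 in YFP+ and 28.5 to 92.5 in YFP− samples. Of 8 endothelial, 5 islet and 5 B cell markers 0 were called by limma, with 0, 0 and 1 at an unadjusted p under 0.05 and medians of 0.14, 0.40 and 0.21. The part of these cells in the keratin difference was not tested.

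**Figure D5:**
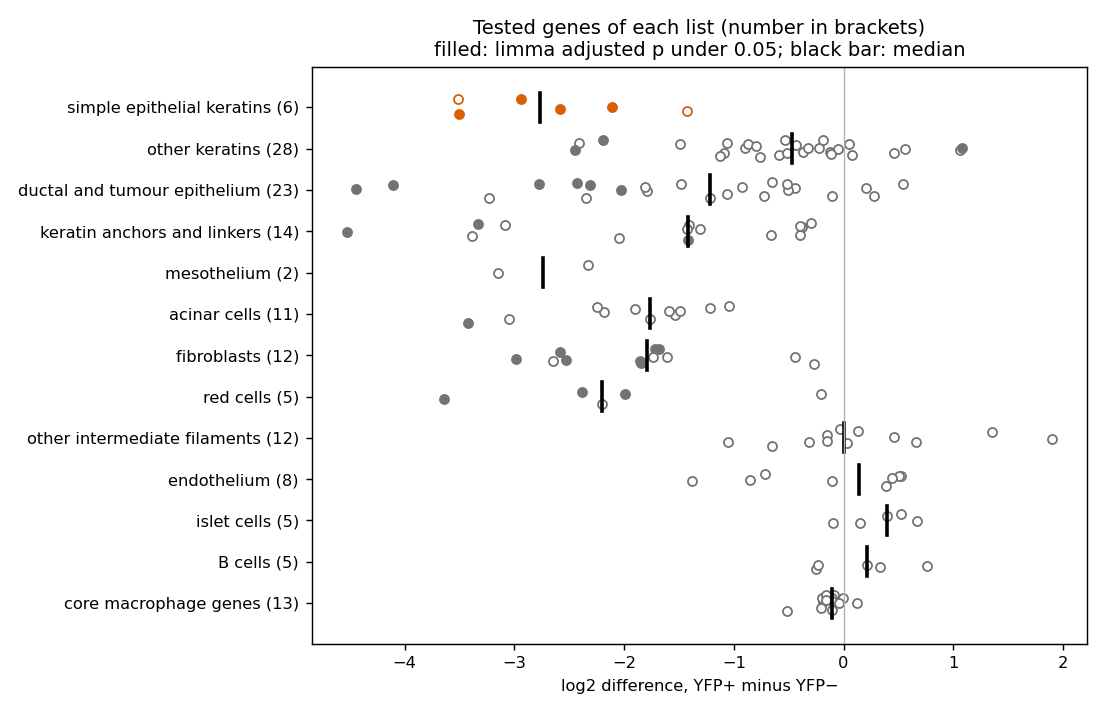
The log2 difference, YFP+ minus YFP−, of every tested gene of each list, with filled points past an adjusted p of 0.05 and black bars at the medians. The 6 simple epithelial keratins have the lowest median, -2.76, beside -2.74 over the 2 mesothelial genes, -1.22 over ductal markers and -0.11 over core macrophage genes.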

How the data were processed

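Amplified Cy5-labelled cDNA from sorted tumour macrophages was measured on 12 one-colour 4x44K arrays. Per the file headers, the deposited intensity is the processed signal of Agilent Feature Extraction 11.5.1.1, with background subtracted and no scaling across arrays. A value table deposited by the authors is on a log2 scale, judged from its values, and its 12 columns each had a median of 8.83. Its normalization is not given in the sources used here, and it served as an alternative. 0 of its columns were left unused.

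Control spots (1377) and spots with outlier flags were left out, and 399 probes printed 10 times were averaged. Signals were log2-transformed and centred on each array's 75th percentile. The filter asked for a probe well above background on 6 or more arrays, and each of 20370 genes took its brightest probe. RefSeq names replaced 1403 array names. limma 3.58.1 in R 4.3.3 (lmFit, eBayes) compared 6 YFP+ with 6 YFP− samples. The p-values were adjusted by Benjamini-Hochberg across all tested genes, and called genes had an adjusted p under 0.05. Detection was compared with Fisher's exact test. Python 3.11.15, scipy 1.17.1 and pandas 2.3.3 were also used. The tests were checked on simulated data.

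The members and lists were chosen with earlier results of these data known. Named genes are the members, called keratins, the genes of lowest p in each list (at most 4), and the 5 named genes most like the keratin profile. After values were seen, genes that the rule takes from lists without a call, other than Msln and Wt1, were left out of the results above. The 57 named genes reported here were recomputed under every setting, and their changes of direction are in the closing part. One item that the rule takes is not reported here. Epcam and Cdh1, and the lengthened promoter window, were chosen after values were seen. The same tumour numbers correlated at -0.30, 0.11, -0.13, 0.37, 0.19 and 0.28 (deviations from group means). The 2 arrays of numbers 1, 2 and 3 lay on different slides, and those of 4, 5 and 6 on the same slide. These correlations cannot separate number from slide, so they do not decide whether numbers pair samples. The main fit did not pair them because the labels tie no number to an animal. The number of arrays limits the precision. Samples of normal pancreas and other mice of the design text were not analysed here.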

Additional observations from a re-analysis of the deposited data

Results flagged for a closer look

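In 14 groups of 6 arrays (7 probes in 2 groups), 3 held an array far from the others by Dixon's gap test, and chance flags about 1 in 20 groups. Krt20 on the YFP+ array of tumour number 4 stood at -4.58, far below the other YFP+ arrays. The dimmer Krt8 probe on the YFP− array of tumour number 4 stood at -0.033, and the brighter Krt8 probe on the same array at 1.43, both below the other YFP− arrays. All 3 are arrays of tumour number 4 on slide 3. Without both of that number's arrays 4 keratins were still called, and the Krt20 difference was -2.98 (adjusted p = 0.0020).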

How the results depend on the processing

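The 4 keratin calls held in number with normexp, quantile normalization, median centring, the deposited table, other filters, probes tested singly or averaged within a gene, array weights and an intensity trend. With the tumour number as a replicate block, fixed or random, 4 were called, and with slide as a block 5, which added Krt7. With slide 1, 2 or 3 alone (2 against 2 arrays) 0 were called, without slide 1 or without slide 2 1 was called, which was Krt8, and with array brightness as a covariate 0 were. Fewer arrays are tested in the slide settings by construction, and the cause of the brightness result was not tested. With any 1 array left out 4 were called, with a tumour number left out 3 to 4, and at an adjusted p of 0.01 3. Of the 15 keratin pairs 2 differed, 3 with normexp, and with a tumour number left out 0 did.

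The calls were lost in 4 of 41 settings for Krt8, 6 for Krt18, 6 for Krt19 and 10 for Krt20, and in 3 to 16 for the other named genes apart from Cela1 and Hba-a1. Counts over all genes were 288 lower and 68 higher, 433 and 123 with slide as a block, 446 lower with normexp, 40 higher with the filter on all 12 arrays, 9 and 3 with array brightness, and 0 and 0 on each slide alone. Without slide 1, 2 or 3 they were 104, 85 and 160 lower and 47, 27 and 36 higher. At an adjusted p of 0.01 they were 117 and 24, and at 0.1 437 and 125. With an array or tumour number left out they were 162 to 299 lower and 32 to 86 higher. Median centring called 116 higher, which is 33.5% of its calls against 19.1%, and moved the median of all genes to 0.18.

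Of 57 named genes, 20 changed direction in at least 1 setting, 66 times in all, and 0 of the 20 were called. They come from lists without a call and from the genes most like the keratin profile, and the cause was not tested. Their log2 differences were as follows. With array brightness as a covariate, Itgam was 0.81, C1qc 0.12, Cd68 0.012, Pcsk2 -0.15, Esam 0.63, Tek 1.95, Bfsp1 -0.15, Fat2 0.26, Olfr514 1.62 and Tmem82 1.31. With array weights, Blk was 0.13 and Olfr514 0.012. In the deposited value table, Cd68 was 0.061 and Ppp2r5d -0.021. With the mean of a gene's probes, Cr2 was -0.17. Under median centring, C1qc was 0.010, Cd68 0.047 and Fat2 0.013. Under normexp background correction, Gcg was -0.11 and Ina -0.0091. Under quantile normalization, Cd68 was 0.060 and Ppp2r5d -0.021. On slide 1 alone, Pax5 was 0.72, Blk 1.27, Ins1 -0.17 and Ppp2r5d -0.089. On slide 2 alone, Cdh5 was 0.90 and Olfr514 0.39. On slide 3 alone, Cr2 was -0.19, Gcg -0.59, Ins1 -1.12, Ppy -0.85, Vwf -0.51 and Ppp2r5d -0.11. Without slide 1, Ppy was -0.16 and Vwf -0.16. Without slide 2, Cr2 was -0.067, Gcg -0.081, Ins1 -0.64, Ppy -0.041 and Ppp2r5d -0.10. Without slide 3, Pax5 was 0.25, Blk 0.27 and Olfr514 0.030. Without tumour number 1, Pax5 was 0.051 and Ppp2r5d -0.16. Without tumour number 3, Olfr514 was 0.16 and Tmem82 0.10. Without tumour number 4, Blk was 0.17, Cdh5 0.052 and Ppp2r5d -0.030. Without tumour number 5, Ins1 was -0.22 and Ppy -0.070. Without tumour number 6, Ppy was -0.093. With 1 array left out the values lay as follows: Blk between -0.66 and 0.27, Ins1 between -0.40 and 0.77, Olfr514 between -0.88 and 0.32, Ppp2r5d between -0.23 and 0.21, Ppy between -0.049 and 0.48 and Tmem82 between -1.26 and 0.35.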
